A study of Danio rerio with 85 samples.

Results

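Crystallins are the soluble proteins that fill the fibre cells of the eye lens and give it its transparency and refractive power. Alpha crystallins belong to the small heat shock proteins and act as chaperones, whereas beta and gamma crystallins share a fold of Greek key motifs and are mainly structural. Fish lenses are particularly rich in gamma M crystallins, a methionine-rich class encoded in zebrafish by a large set of near-identical genes. Gamma N crystallins combine features of the beta and the gamma genes, and gamma S is the gamma class known from the mammalian lens cortex.

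The crystallin genes were taken as all genes of the whole-embryo tables whose zebrafish name begins with cryaa, cryab, cryba, crybb, crygm, crygn or crygs. This gave 53 of 30029 gene identifiers, namely 3 alpha, 13 beta, 31 gamma M, 2 gamma N and 4 gamma S genes. A gene that was named in the heart tables carries that name, and all others carry the symbol of an Ensembl gene name table, which for some zebrafish genes is the human-style symbol in capitals. For 2 members the sources disagree: the genes called crygm2d8 (ENSDARG00000069817) and crygm2d9 (ENSDARG00000073750) here, after the heart tables, are crygm2d17 and crygm2d18 in the name table. Where 2 identifiers share such a symbol, the identifier follows in parentheses. A further 3545 identifiers had no name, so a crystallin gene among them would have been missed.

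The study compared zebrafish embryos with and without Rnf2, the catalytic subunit of Polycomb repressive complex 1, at 3 days post fertilization (dpf). There were 8 libraries from wildtype embryos (replicates 1 to 5 and 11 to 13), labelled as strain TLF, and 7 libraries from rnf2-/- embryos (replicates 1, 2, 3, 5, 6, 7 and 8), labelled as a TU/TLF mixed background and homozygous for a small deletion that brings a premature stop codon. Each library came from a pool of whole embryos, and mutants were picked by their phenotype from a heterozygous incross, while the controls were a separate wildtype strain. According to the methods that strain shares the genetic background of the mutants, whereas the labels of the groups differ. Strain label and genotype therefore cannot be told apart in whole embryos. In addition, single dissected hearts at 1, 2 and 3 dpf were available, all in a TU/TLF mixed background with the myl7:GFP transgene that marks heart muscle cells, from rnf2+/+ embryos (9, 13 and 10 hearts) and rnf2-/- embryos (8, 9 and 9 hearts). Since zygotic mutants from heterozygous mothers were used, maternally supplied Rnf2 was not removed.

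Whole-embryo values are normalized counts, the reads of a gene divided by the size factor of its library. Whether these reads had been adjusted for a batch effect before cannot be told from the values. The libraries held between 4711185 and 12585927 reads in wildtypes and between 6251467 and 11036762 reads in mutants. The transcript of rnf2 itself lay between 497 and 699 normalized counts in wildtypes and between 116 and 153 in mutants, which fits the labels of all 15 libraries. Of the 53 crystallin genes, 40 reached a mean of 5 normalized counts and entered the main test (2 alpha, 11 beta, 25 gamma M and 2 gamma N). In a whole-embryo lysate, fewer lens cells and less RNA per lens cell cannot be told apart. Together the crystallin genes took 0.616% ± 0.225 of all reads in wildtypes (SD, n = 8) and 0.462% ± 0.130 in mutants (SD, n = 7), and 5 of the 7 mutant libraries lay within the range of the wildtypes.

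Crystallin transcripts were lower in rnf2 mutants for 20 of the 40 tested genes, among them 10 of the 11 tested beta genes. Of the 19 gamma M genes named crygm2d, 5 were called lower, and 15 with wildtypes 1 to 5 as the only controls (all tested genes 27.3% and 24.8%). Calls came from a limma test on log2(normalized count + 1). A call required a p of 0.1 or less after Benjamini-Hochberg adjustment over all 22685 tested genes. Beside the 20 crystallin genes called lower, 4 were called higher (1 of them, CRYBA1, in the test only through its mutant values). Among all tested genes, 27.3% were called lower and 28.7% higher by the same test. The median log2 fold change was -0.44 over the 40 crystallin genes and 0.03 over all tested genes. When the same model tested against a log2 fold change of 1, no crystallin gene was called lower and 1 was called higher, a gamma N gene described below, against 0.908% of all genes lower and 1.01% higher. At an unadjusted p under 0.05 this limma test gave 3 lower crystallin genes (CRYBA4, crybb1l3 and crygmx), the same 3 that edgeR called lower after adjustment, whereas DESeq2 called 0. The share of all tested genes at that unadjusted threshold was not counted, so the unadjusted count is not read as a result. Of the 22685 tested genes, edgeR called 288 lower against this threshold and DESeq2 202. The 7 mutant libraries all lay below the 8 wildtype libraries for 4 crystallin genes (crybb1l3, CRYBA4, crygmx and crygmxl1) and above them for 1 gene, and the groups overlapped for the other 35. Leaving out each library in turn, 17 of the 20 genes called lower and 3 of the 4 called higher kept their call every time. Over all tested genes, 9.55% had all mutants below and 6.98% had all mutants above.

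**Figure D1:**
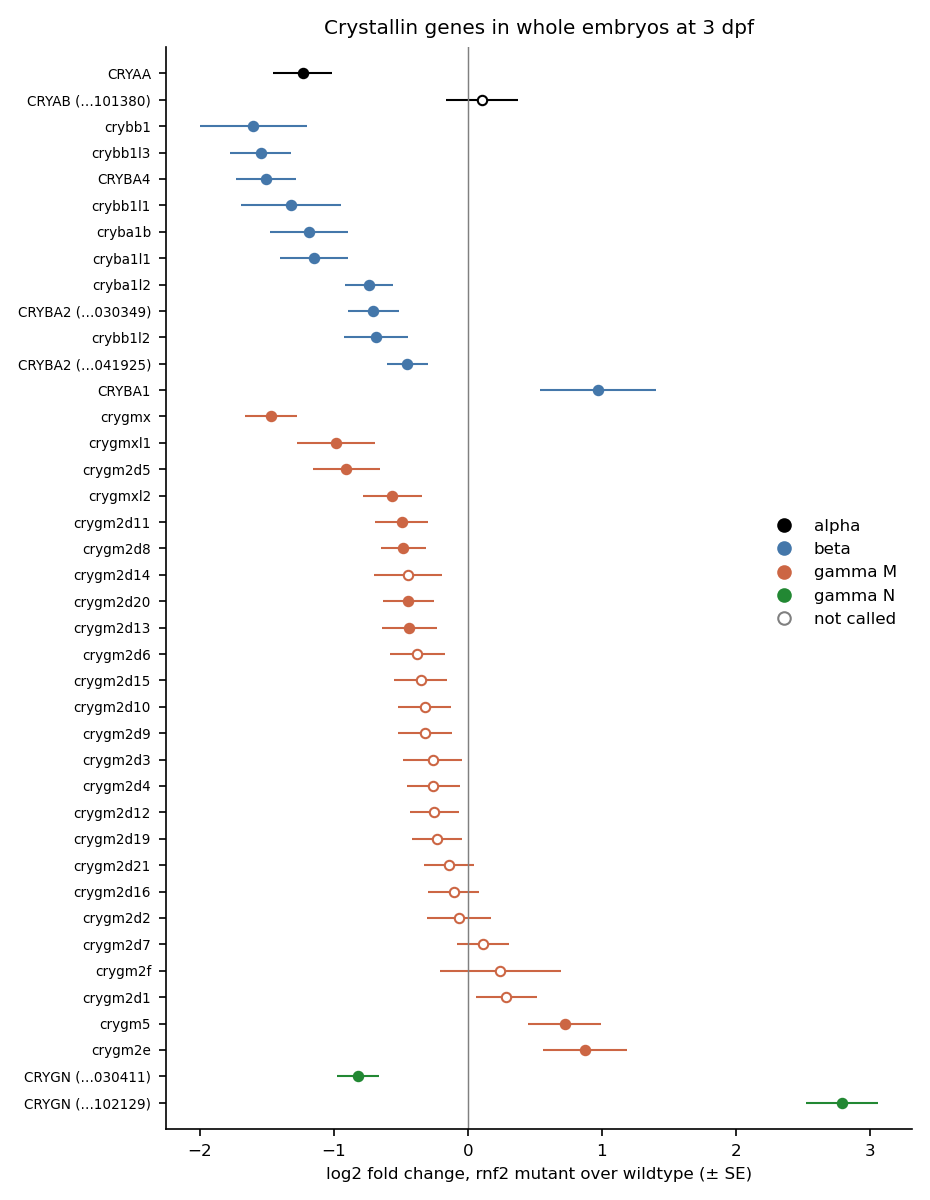
Log2 fold change of the 40 tested crystallin genes in whole embryos at 3 dpf, rnf2 mutants over wildtypes (x axis, bars are the SE of the limma fit, n = 7 mutant and 8 wildtype libraries), by class. Filled points passed the test at an adjusted p of 0.1, open points did not. Of the 11 beta genes (blue), 10 lie left of zero and passed, from -0.45 to -1.60, while 14 of the 19 crygm2d genes (orange) did not pass. Of all tested genes, 27.3% were called lower.

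The alpha crystallins split. CRYAA encodes the alpha A chaperone, which in vertebrates is made almost exclusively in the lens. Its normalized counts ran from 106 to 236 (median 144) in wildtypes and from 37.1 to 111 (median 63.5) in mutants. Only mutant 2 reached into the wildtype range. CRYAA fell by 1.23 on the log2 scale (SE 0.22, adjusted p = 0.000116, limma). Alpha B crystallin is also made outside the lens in vertebrates, among others in muscle. CRYAB (ENSDARG00000101380) lay between 7.58 and 16.3 normalized counts in wildtypes (median 12.6) and between 5.28 and 20.3 in mutants (median 12.8). The groups overlapped fully and the difference was not significant (log2 fold change 0.11, SE 0.27, adjusted p = 0.763, limma). The other alpha B gene, CRYAB (ENSDARG00000042621), had at most 5.75 normalized counts in any library and was below the filter of the main test.

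Among the beta crystallins, which form oligomers in the lens, 10 of 11 tested genes were called lower, against 27.3% of all tested genes. The remaining gene, CRYBA1, was called higher but reached the filter only through the mutants. The 2 beta genes under the filter, CRYBB2 and CRYBB3, averaged 4.66 and 2.73 normalized counts in wildtypes and 5.03 and 3.28 in mutants. CRYBA4 ran from 1732 to 4858 normalized counts in wildtypes (median 2408) and from 575 to 1307 in mutants (median 898). All 7 mutants lay below all 8 wildtypes. Its log2 fold change was -1.51 (SE 0.22, adjusted p = 1.4e-05, limma). crybb1 ran from 321 to 1072 normalized counts in wildtypes (median 641) and from 37.1 to 435 in mutants (median 297). Mutants 5 and 3 were lowest with 37.1 and 116, and only mutant 2 reached into the wildtype range. Its log2 fold change was the largest of the class, at -1.60 (SE 0.40, adjusted p = 0.00261, limma).

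crybb1l3 was present at 30.9 to 80.3 normalized counts in wildtypes (median 58.7) and at 9.05 to 29.8 in mutants (median 18.2), again without overlap between the groups. It fell by 1.55 on the log2 scale (SE 0.23, adjusted p = 1.44e-05, limma). Smaller changes were found for the acidic beta A2 genes. CRYBA2 (ENSDARG00000041925) ran from 1566 to 3383 normalized counts in wildtypes (median 2310) and from 1299 to 2419 in mutants (median 1610). Here 5 of the 7 mutants lay within the wildtype range, and the log2 fold change was -0.45 (SE 0.15, adjusted p = 0.0196, limma). crybb1l2 ran from 1470 to 3670 normalized counts in wildtypes (median 2482) and from 683 to 2702 in mutants (median 1463), with 4 mutants below the lowest wildtype. It fell by 0.68 (SE 0.24, adjusted p = 0.0231, limma).

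The remaining beta genes that fell were crybb1l1, cryba1b, cryba1l1, cryba1l2 and CRYBA2 (ENSDARG00000030349), with log2 fold changes between -1.32 and -0.71. CRYBA1 was near the detection limit, at 0 to 8.15 normalized counts in wildtypes (mean 4.41) and 4.87 to 9.80 in mutants (mean 7.57). Since its wildtype mean lies under the minimum of 5, it entered the test because its mutant values were high, and its call is not read as a result. It had 93 reads over all 15 libraries, did not pass with edgeR or DESeq2 on the recovered reads, and lost its call when wildtype 2, 4 or 13 or mutant 5 or 8 was left out (adjusted p up to 0.135). The count of 10 lower beta genes was the same whichever single library was left out, where 25.6% to 26.9% of all tested genes were called lower.

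**Figure D2:**
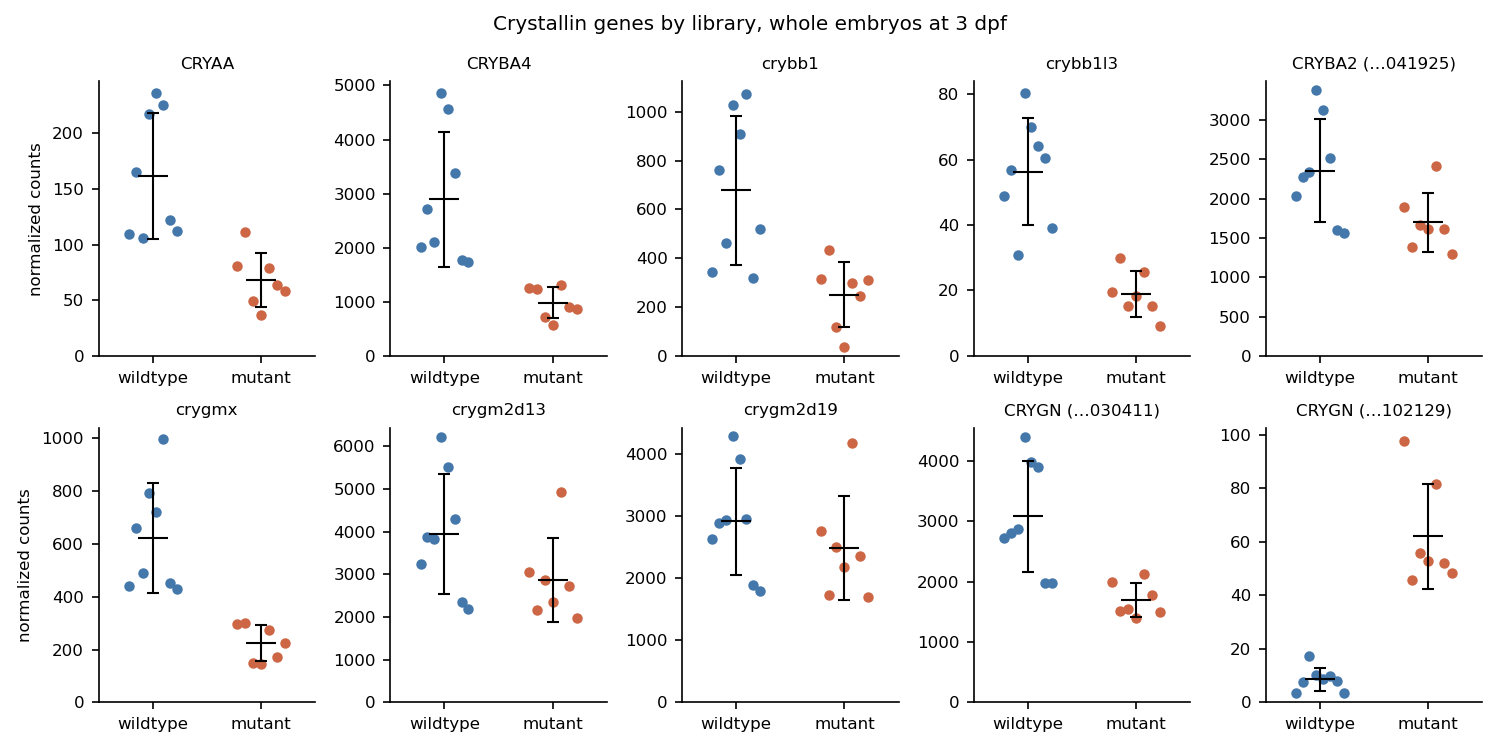
Normalized counts of 10 crystallin genes in each whole-embryo library at 3 dpf (y axis, from 0), wildtypes in blue (n = 8) and rnf2 mutants in orange (n = 7); black bars are the mean ± SD. The 7 mutants lie below all wildtypes for CRYBA4, crybb1l3 and crygmx, overlap with them for crygm2d13 and crygm2d19, and lie above them for CRYGN (ENSDARG00000102129), at 45.8 to 97.9 against 3.49 to 17.2.

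In the annotation order of the RefSeq zebrafish gene table (assembly GRCz12tu), several beta genes lie next to another crystallin gene. crybb1 and CRYBA4 fell by 1.60 and 1.51 on the log2 scale. crybb1l1 and cryba1l1 fell by 1.32 and 1.15. cryba1l2 and crybb1l2 fell by 0.74 and 0.68. In the gamma M pair crygmx and crygmxl2, the fold changes were further apart, at -1.47 and -0.56. The gene order held 5 such pairs. The pair of cryba1a and crybb1l3 is not compared, because no gene carried the name cryba1a here. crybb1l3 had a log2 fold change of -1.55. CRYBA1 had 0.97, a call not read as a result, and whether it is cryba1a was not settled. Whether neighbours changed more alike than other beta genes was not tested.

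The gamma M class consists largely of the crygm2d genes. All 19 crygm2d genes passed the filter on low values, and for all 19 the range of the mutants overlapped with that of the wildtypes. They lie in 1 run of 31 adjacent crystallin genes. Because reads were counted only where they mapped uniquely, the split of reads between these near-identical copies is uncertain, and individual values should be read with this in mind. Of the 19 genes, 17 had a negative log2 fold change, but 5 (26.3%, against 27.3% of all tested genes) were called lower (crygm2d5, crygm2d8, crygm2d11, crygm2d13 and crygm2d20) and none higher, by limma. Their median log2 fold change was -0.32.

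crygm2d13 ran from 2188 to 6207 normalized counts in wildtypes (median 3840) and from 1970 to 4936 in mutants (median 2718). Mutant 6 was high and the other 6 mutants lay between 1970 and 3047. The log2 fold change was -0.44 (SE 0.21, adjusted p = 0.0854, limma). crygm2d19 ran from 1796 to 4279 normalized counts in wildtypes (median 2907) and from 1699 to 4169 in mutants (median 2357). The ranges were nearly the same, and the log2 fold change of -0.23 was not significant (SE 0.19, adjusted p = 0.316, limma), with a 95% interval from -0.60 to 0.13. crygm2d20 ran from 1683 to 3904 in wildtypes (median 2752) and from 1274 to 3344 in mutants (median 1941), with a log2 fold change of -0.44 (SE 0.19, adjusted p = 0.0608, limma).

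Of the crygm2d genes, crygm2d5 had the largest change. It ran from 89.7 to 277 normalized counts in wildtypes (median 196) and from 56.1 to 205 in mutants (median 86.1), with 4 mutants below the lowest wildtype (log2 fold change -0.91, SE 0.25, adjusted p = 0.00531, limma). The calls in this cluster depended on few libraries. crygm2d13 lost its call without any 1 of 10 libraries (wildtypes 2, 3, 4, 5 and 11, mutants 2, 3, 5, 7 and 8, adjusted p up to 0.173), crygm2d20 without wildtype 4 or 5 or mutant 2 or 8 (up to 0.141), and crygm2d11 without mutant 8 (0.109). Wildtypes 12 and 13 had the lowest gamma M means among the wildtypes and mutant 6 the highest among the mutants. Leaving out any 1 of these 3 raised the number of crygm2d genes called lower from 5 of 19 to 10, 10 and 13. Of all tested genes, 26.4%, 26.5% and 26.6% were called lower in these 3 settings. Without wildtypes 11 to 13, 15 of 19 crygm2d genes and 30 of 40 crystallin genes were called lower, against 24.8% of all tested genes in that setting. Leaving out wildtype 4 or 5, or mutant 2, reduced the number of crygm2d genes called lower to 3, and leaving out mutant 8 reduced it to 2. In these settings 26.4% to 26.6% of all tested genes were called lower. DESeq2 on the recovered reads also called 2 crygm2d genes lower, against 26.8% of all tested genes.

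The genes crygmx, crygmxl1 and crygmxl2 all fell; a difference from the crygm2d genes was not tested. crygmx ran from 428 to 996 normalized counts in wildtypes (median 574) and from 147 to 302 in mutants (median 224). No mutant reached the lowest wildtype, and the log2 fold change was -1.47 (SE 0.19, adjusted p = 3.56e-06, limma). crygmxl1 ran from 9.15 to 22.3 normalized counts in wildtypes (median 11.5) and from 1.58 to 8.89 in mutants (median 6.78), likewise without overlap (log2 fold change -0.99, SE 0.29, adjusted p = 0.00867, limma). crygmxl2 fell by 0.56 with overlapping ranges.

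Of the 25 tested gamma M genes, 2 weakly detected ones were called higher in mutants (8%, against 28.7% of all tested genes). crygm5 ran from 15.4 to 45.3 normalized counts in wildtypes (median 28.9) and from 26.4 to 95 in mutants (median 39.4), a log2 fold change of 0.72 (SE 0.28, adjusted p = 0.0358, limma). crygm2e ran from 2.97 to 12.3 in wildtypes (median 7.88) and from 8.01 to 28 in mutants (median 15.1), a log2 fold change of 0.87 (SE 0.32, adjusted p = 0.0272, limma). For both genes the groups overlapped. With wildtypes 1 to 5 as the only controls, crygm2e passed and crygm5 did not. With the libraries of replicates 1, 2, 3 and 5 only, crygm5 passed and crygm2e did not. With those replicate numbers as a block, neither passed. In these 3 settings 26.2%, 19% and 18.6% of all tested genes were called higher.

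The 2 gamma N genes changed in opposite directions. CRYGN (ENSDARG00000030411) ran from 1983 to 4400 normalized counts in wildtypes (median 2842) and from 1404 to 2134 in mutants (median 1541). Wildtypes 12 and 13, at 1983 and 1986, were the only ones within the range of the mutants. It fell by 0.82 on the log2 scale (SE 0.15, adjusted p = 0.000191, limma). CRYGN (ENSDARG00000102129) was scarce in wildtypes, at 3.49 to 17.2 normalized counts (median 8.30), and reached 45.8 to 97.9 in mutants (median 52.9). Every mutant lay above every wildtype.

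This gene was the only crystallin gene called by the limma test against a log2 fold change of 1 (log2 fold change 2.79, SE 0.27, adjusted p = 0.000149). The estimate stayed between 2.65 and 2.94 when each library was left out in turn, and the call was kept in each case. It had 524 reads over all 15 libraries, and with a minimum mean of 50 normalized counts it was not tested.

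The 13 crystallin genes under the filter had at most 4.83 normalized counts on average over the 15 libraries. For all 13, the mean was higher in mutants than in wildtypes, compared with 75.2% of the 7344 genes under the filter as a whole. All 4 gamma S genes belonged to this set. CRYGS (ENSDARG00000042992) had 0 to 3.63 normalized counts in wildtypes and 0.79 to 7.31 in mutants, crygs4 had 0 to 2.24 and 0.82 to 6.87, and crygs3 had 0 to 1.49 and 0.82 to 2.44. These are 21 to 36 reads per gene over all 15 libraries, and the genes were not part of the main test. When the filter was dropped, limma called 3 of the 4 gamma S genes higher, and 27.2% of all 30029 genes were called higher in that setting. In mutants 2, 3, 5 and 7, CRYAB (ENSDARG00000042621), CRYBB3, crygm2a and crygm6 shared the values 1.14, 1.16, 0.79 and 1.27, each the value of 1 read. Whether a batch adjustment set such values was not tested. The direction of the genes under the filter is therefore not read as a result.

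The class means put these genes together per library, as the mean of log2(normalized count + 1) over the tested members of a class. For the beta class the 8 wildtypes averaged 9.31 ± 0.48 (SD) and the 7 mutants 8.41 ± 0.49, a difference of -0.90 (SE 0.25). Of the 7 mutants, 5 lay below the lowest wildtype. For gamma M it was 9.22 ± 0.44 and 8.95 ± 0.45, a difference of -0.27 (SE 0.23). With all genes of the class, those under the filter included, the gamma M difference was -0.019 and the beta difference -0.72. The 6 gamma M genes added there averaged at most 3.25 normalized counts, yet each weighs as much as an abundant gene. On the log2 scale of summed counts of the tested genes, the differences were -0.29 (gamma M) and -0.94 (beta). With wildtypes 1 to 5 as the only controls, the differences in class means were -0.48 and -1.02. For the tested gamma M genes against all 8 wildtypes, only mutants 2 and 8 lay below the lowest wildtype, and mutant 6 lay above the highest. For alpha it was 5.45 ± 0.33 and 4.89 ± 0.45, with 3 of 7 mutants below the lowest wildtype, and the difference was -0.28 with all 3 alpha genes.

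The gamma N mean was 7.33 ± 0.48 in wildtypes and 8.32 ± 0.31 in mutants. It was higher in all 7 mutants because both genes weigh the same on the log scale, whereas the summed counts of the 2 genes were lower in mutants (3092 ± 918 against 1758 ± 297 normalized counts). No p is given for class means, since the members were chosen with results of these data known. Wildtypes 12 and 13 were the lowest wildtypes for beta and gamma M, and wildtypes 4 and 5 were the highest for gamma M.

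**Figure D3:**
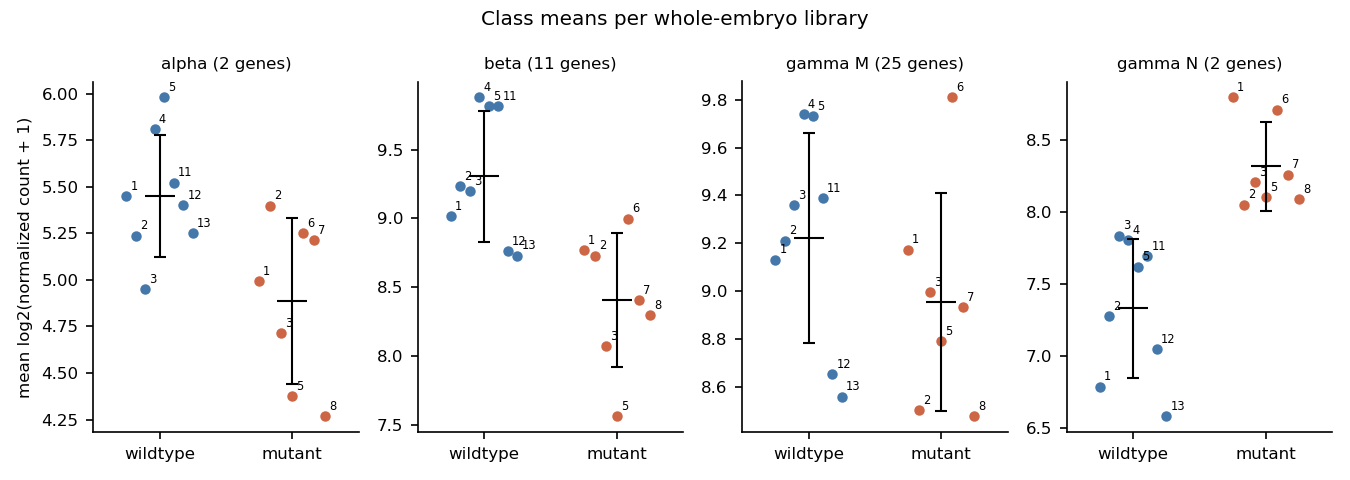
Mean log2(normalized count + 1) over the tested genes of each crystallin class in every whole-embryo library (y axis, own scale per class and not starting at 0), wildtypes in blue (n = 8) and rnf2 mutants in orange (n = 7), with replicate numbers beside the points and mean ± SD in black. The beta means of 5 of 7 mutants lie below the lowest wildtype (8.73), while the gamma M ranges overlap.

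The makeup of the crystallin transcripts shifted as well. Beta genes accounted for 31.7% ± 2.66 of all crystallin normalized counts in wildtypes (SD, n = 8) and for 23.5% ± 5.06 in mutants (SD, n = 7). The lowest shares were 16.5% in mutant 5 and 19.2% in mutant 3, and only mutant 2, with 31.9%, lay within the wildtype range of 27.3% to 35.4%. Gamma M genes accounted for 62.2% ± 2.69 in wildtypes and 71.5% ± 5.5 in mutants, with 6 of 7 mutants above the highest wildtype. These shares are not corrected for gene length, so they describe counts and not molecules. The log2 ratio of summed beta to summed gamma M counts within a library was -0.97 ± 0.19 in wildtypes and -1.63 ± 0.42 in mutants, and it does not depend on the size factor.

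**Figure D4:**
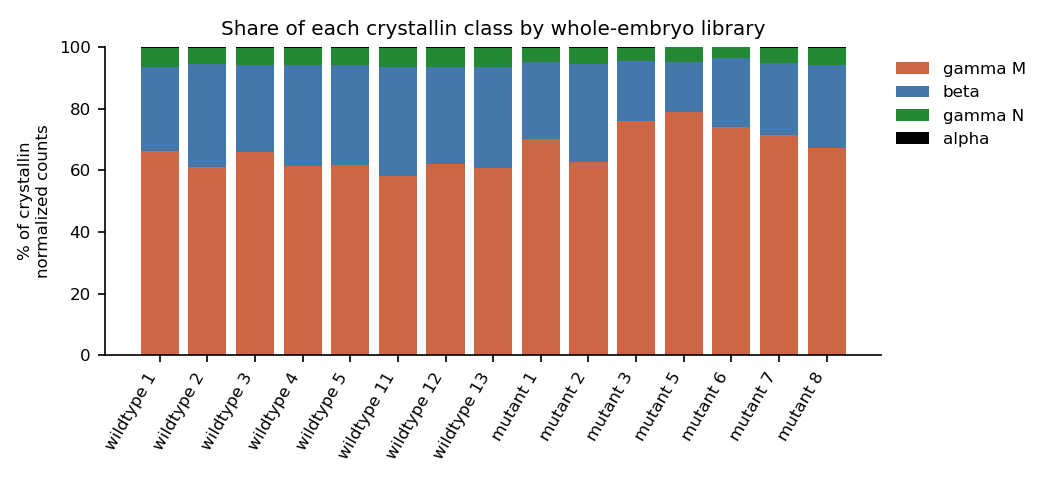
Share of each crystallin class in the crystallin normalized counts of every whole-embryo library (y axis in %, bars add up to 100). The beta share (blue) was 27.3% to 35.4% in the 8 wildtypes and 16.5% to 31.9% in the 7 mutants, and the alpha share (black) was below 1% in every library.

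Other lens genes were examined to place these values, together with genes of neighbouring tissues. The counts of called genes below stand against 27.3% lower and 28.7% higher among all tested genes. Listed genes without a match by name are missing from them. Matches were found for 19 of 22 lens fibre, 19 of 23 lens transcription factor and 16 of 27 photoreceptor genes. The same held for 17 of 20 other retinal and 8 of 10 small heat shock protein genes. Of the 18 tested genes for lens fibre membranes, junctions and cytoskeleton, 12 were called lower and 2 higher by limma, with a median log2 fold change of -0.67. Lens fibre cells carry aquaporin 0 (MIP) as their main membrane protein. MIP (ENSDARG00000013963) ran from 221 to 801 normalized counts in wildtypes and from 39.5 to 160.3 in mutants. The groups did not overlap, and it fell by 2.02 on the log2 scale (SE 0.28, adjusted p = 7.57e-06, limma). The limma test against a log2 fold change of 1 called 4 genes of this list, all lower, against 0.908% lower and 1.01% higher among all tested genes. It called no crystallin gene lower, whereas edgeR on the recovered reads called 3 lower against the same threshold, beside 288 of all 22685 tested genes. A difference between the list and the crystallin genes was not tested.

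Of the 18 tested lens transcription factor genes, 7 were called lower and 5 higher by limma, with a median of 0.11. HSF4, a heat shock factor needed for fibre cell maturation in mammals, fell by 0.83 on the log2 scale (SE 0.26, adjusted p = 0.0114, limma). pitx3, a homeobox gene of the lens, fell by 0.80. foxe3, a forkhead gene of the lens epithelium, is among the 5 called higher, by 0.81 at 2.24 to 14.6 normalized counts. Its mean was 4.98 in wildtypes and 9.52 in mutants. It entered the test through its mutant values, so its call is not read as a result. Of 16 tested photoreceptor genes, 9 were lower and 4 higher (median -0.23), led by the opsin genes opn1mw1 (log2 fold change -2.20), opn1mw2 (1.57) and opn1lw1 (1.19).

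Of 17 genes of other retinal cells and pigment epithelium, 7 were lower and 3 higher (median -0.07), with rbp4l at -1.55, atoh7 at -0.94 and rlbp1b at -0.92. Of 12 genes of surface epithelium and cornea, 2 were lower and 6 higher (median 0.27), with the keratin genes krt91 at 1.21, krt17 at -1.02 and cyt1 at 0.76. Of 8 genes for small heat shock proteins other than alpha crystallins, 3 were lower and 1 higher (median -0.01), with hspb9 at 2.06, hspb6 at -1.28 and hspb7 at -1.19. hspb9, the gene called higher, had a mean of 3.13 normalized counts in wildtypes and 20.6 in mutants. It too entered the test through its mutant values, so its call is not read as a result. The part of these tissues in the crystallin values was not tested.

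The dissected hearts gave a second, separate set of measurements. Their defining marker myl7, a myosin light chain gene of heart muscle, was present in every heart, at 35.3 to 236 normalized counts. Crystallins are given as unique molecular identifiers (UMIs), which mark single transcript molecules. They were recovered from the scaled values, of which 100% were whole multiples (within 0.01) of 1 UMI in every heart. The heart tables list genes seen in enough hearts of an age, and they held no crystallin gene at 1 dpf, 14 (3 beta and 11 gamma M genes) at 2 dpf and 1, crygm2d3, at 3 dpf. At 2 dpf, the summed crystallin UMIs per heart were 0 to 94 in 13 wildtype hearts (median 2) and 1 to 89 in 9 mutant hearts (median 2). Total depths were 23523 to 81685 UMIs in wildtype hearts (median 39204) and 46943 to 109942 in mutant hearts (median 76771). Equal medians in UMIs therefore do not mean equal crystallin shares. The molecules were concentrated in few hearts. Wildtypes 8 to 13 held 94, 32, 10, 15, 27 and 12 UMIs and mutant 32 held 89, whereas every other 2 dpf heart held 4 or fewer.

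By mean normalized count, the leading crystallin genes in 2 dpf hearts were crygm2d5, crygm2d9 and crygm2d19, with 43, 32 and 31 UMIs over all 22 hearts. This order rests on wildtype 8 and mutant 32, which held 33 of the 43 and 24 of the 32 UMIs of the first 2 genes. In the other 20 hearts cryba1b and crygm2d8 had the most, with 14 UMIs each, followed by crygm2d19 with 12, while crygm2d5 had 10 and crygm2d9 had 8. crygm2d5 had 26 UMIs in 5 wildtype hearts and 17 UMIs in a single mutant heart. At 3 dpf, crygm2d3 had 1 UMI in 1 of 10 wildtype hearts and 1 UMI in each of 5 of 9 mutant hearts. Since the tables keep only genes seen in enough hearts, this gene was listed at 3 dpf because of the mutant hearts. The split between the groups is therefore not read as a result. No crystallin gene differed between mutant and wildtype hearts at an adjusted p under 0.01 in limma, at which 0.634% of all genes passed at 2 dpf and 5.36% at 3 dpf. At an unadjusted p under 0.05 the count was also 0 at both ages, and the smallest adjusted p was 0.573 at 2 dpf and 0.44 at 3 dpf. edgeR on the recovered UMIs also called none, against 0.888% of all genes at 2 dpf and 6.89% at 3 dpf. At 2 dpf edgeR gave 3 lower genes at an unadjusted p under 0.05 (crybb1, crybb1l1 and crygm2d21, smallest adjusted p = 0.18). The share of all genes at the unadjusted threshold was not counted for either tool. These 3 genes had UMIs in 5, 4 and 6 of 13 wildtype hearts and in 1, 2 and 1 of 9 mutant hearts. They were listed at 2 dpf mainly because of the wildtype hearts, so their direction is not read as a result. A difference in crystallin transcripts between mutant and wildtype hearts was thus not detected. Hearts of similar depth differed widely in crystallin UMIs, with 0 of 44978 UMIs in wildtype 6 and 94 of 48015 in wildtype 8 at 2 dpf.

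**Figure D5:**
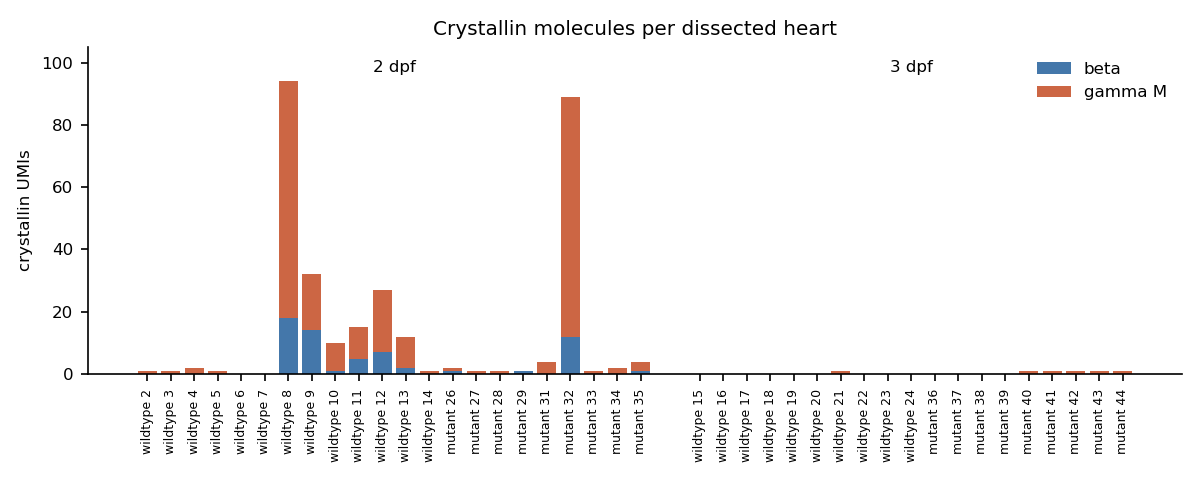
Crystallin UMIs in each dissected heart at 2 dpf (left) and 3 dpf (right), stacked by class (y axis, UMIs). At 2 dpf 6 wildtype hearts and 1 mutant heart held 10 to 94 UMIs and all others 4 or fewer. At 3 dpf no heart held more than 1. The values cover the listed crystallin genes, 14 at 2 dpf and 1 (crygm2d3) at 3 dpf, so the ages cannot be compared.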

How the data were processed

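RNA of whole embryos was sequenced after rRNA depletion; the authors mapped reads with STAR 2.5.2b to GRCz10, counted them per gene and divided them by DESeq2 size factors. The deposited whole-embryo values are therefore a signal in normalized counts. In all 15 libraries 100% of values were whole multiples (within 0.01) of 1 unit, taken as 1 read, and reads were recovered from them. Counts that were adjusted for a batch effect and rounded would pass the same check. The recovered reads may therefore differ from the sequenced ones. Heart values were deposited as UMI counts scaled by Monocle, again a signal, and 100% of values in each heart were whole multiples (within 0.01) of 1 UMI; 3 deposited columns at 2 dpf are recorded as a score but hold the same quantity. Depth sets the precision: genes under a mean of 5 normalized counts were left out of the main test and entered only the alternative without a filter.

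The main test was limma 3.58.1 in R 4.3.3 on log2(value + 1), with an empirical Bayes trend, both plain and against a log2 fold change of 1, with calls at 0.1 or less after Benjamini-Hochberg adjustment (hearts, each age apart, under 0.01). Alternatives were edgeR 4.0.16, DESeq2 1.42.0, 1 surrogate variable from sva 3.50.0, other pseudocounts, filters and scalings, fewer controls, a replicate block and each replicate left out. Before its own test of expression in whole embryos the paper removed a batch effect with RUVSeq, whereas the main test here held no batch term. Whether the deposited values already hold that adjustment could not be told. The scripts were tested on simulated data. The samples are separate pools or hearts, though nothing states that pools came from separate clutches, so p-values measure the spread between these pools. Values in each library are given for alpha genes and, per class, the 3 genes with the highest mean and the 3 with the largest change; crygm5, crygm2e, crygmxl2, CRYBA1, the neighbour pairs, the leading genes of the hearts without wildtype 8 and mutant 32, and the heart genes at an unadjusted p under 0.05 were named after their values were seen. For the other lists, the 3 called genes with the largest change are named, except that a result of the lens fibre list is not reported here. Members and lists were chosen with earlier results of these data known, and 6 list names were matched to table symbols (MIP and LIM2 among them) after the files were opened. Names came from the heart tables or the gene name table for 26484 identifiers. ChIP-seq peaks were not used here.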

Additional observations from a re-analysis of the deposited data

Results flagged for a closer look

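Among the class means, the named genes and the heart sums, in 43 groups of 4 to 10 samples, 4 had a sample far from the others by Dixon's gap test, of which chance gives about 1 in 20. In wildtypes, crygmxl1 was high in wildtype 4, with 4.54 on the log2(normalized count + 1) scale against 3.91 in the next library. In mutants, the same gene was low in mutant 5, with 1.37 against 2.5 in the next. Among 2 dpf mutant hearts, mutant 32 held 89 crystallin UMIs against 4 in the next heart. Among 3 dpf wildtype hearts, wildtype 21 held 1 crystallin UMI and the other 9 held 0, where a single UMI meets this criterion by construction.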

How the results depend on the processing

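The median of all genes moved by less than 0.1 on the log2 scale between scalings. The limma test against a log2 fold change of 1 called 1 crystallin gene higher and none lower, and leaving out each library gave 1 to 1 and 0 to 0. With edgeR on the recovered reads, 3 were called lower (CRYBA4, crybb1l3 and crygmx), against 288 of all 22685 tested genes. With a minimum mean of 50, which removes the gamma N gene, 0 were called higher, against 83 of all 15334 genes tested in that setting. The plain limma test called 17 to 28 of 40 crystallin genes lower and 3 to 4 higher when each library was left out. Among all tested genes, 25.6% to 26.9% were called lower and 26.4% to 28.5% higher in these settings. Genes called higher were 11 of 53 without a filter (7 of them under it, against 27.2% of all genes) and 0 with a minimum mean of 50 (25% of all genes). With wildtypes 1 to 5 only they were 2 (26.2% of all genes). With the libraries of replicates 1, 2, 3 and 5, an alternative chosen after seeing the data, they were 2 (19% of all genes). Under the replicate block on those numbers, 31 were called lower and 1 higher (all genes 20.4% lower and 18.6% higher), against 30 lower without the block (20.3%). Same-numbered libraries correlated at -0.16 to 0.03, so the numbers do not pair the samples.

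Class differences ranged from -0.65 to -0.46 (alpha), -1.0 to -0.76 (beta), -0.41 to -0.19 (gamma M) and 0.88 to 1.06 (gamma N) over left-out libraries. From summed counts they were -1.09 for alpha and -0.77 for gamma N, against 0.99 for gamma N from the mean of logs, and gamma N was 0.56 with a pseudocount of 10. CRYAB (ENSDARG00000101380) ranged from -0.0071, without mutant 7, to 0.29, without mutant 8. Tested against a log2 fold change of 1, the lists gave 4 lower and 0 higher for lens fibres, 1 and 1 for photoreceptors, and 0 in both directions for the other 4 lists. Among all tested genes, 0.908% were lower and 1.01% higher in that test. With wildtypes 1 to 5 only, 1 other retinal gene was higher, against 26.2% of all tested genes. Heart counts stayed at 0 to 0 at each age when each heart was left out. The comparison with ChIP peaks was not run. The gamma S genes rest on few reads, and whether depth or the spread between hearts limits the heart test was not tested.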
